A study of Sus scrofa with 6 samples.

Results

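The RNA degradation and deadenylation machinery was followed here across 6 single pig embryos. Its members were the genes that the deposited gene table annotates to the KEGG pathway RNA degradation. Of 75 annotated genes, 7 that are also annotated to glycolysis (enolases and phosphofructokinases) and 7 cytoplasmic poly(A) binding protein genes were left out, which gave 61 of the 24358 genes of the table, *BTG4* included. The embryos were collected at day 5 and are labelled as porcine blastocysts. The 3 control embryos were not injected. The 3 *CARM1* KD embryos had received about 10 pl of 50 μM siRNA at the MII oocyte stage, directed against the coding region of *CARM1*, the histone arginine methyltransferase under study. No library of embryos injected with another siRNA was used here, so the injection and the loss of *CARM1* cannot be told apart, and it is not stated in the sources used here whether the sequenced embryos were parthenogenetic or fertilized. *CARM1* itself had 1.26 to 4.54 FPKM (fragments scaled by gene length and by the mapped fragments of the library) in the control embryos and 0.130 to 0.274 FPKM in the *CARM1* KD embryos.

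Most messenger RNAs are removed in steps. Deadenylases, chiefly the CCR4-NOT complex and PAN2-PAN3, first shorten the poly(A) tail. The body of the RNA is then either decapped and digested from its 5′ end, with the LSM ring and DDX6 as cofactors, or digested from its 3′ end by the RNA exosome. In early embryos this machinery is known for the clearance of the RNA that the oocyte stored, and in mice the adaptor BTG4 recruits CCR4-NOT to those RNAs.

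The embryos differed strongly in what they held. A list of 14 oocyte markers, such as *BMP15*, reached a total of 3856 FPKM for control 2 and 1869 FPKM for *CARM1* KD 3, whereas control 1 and 3 had 730 and 183 FPKM and *CARM1* KD 1 and 2 had 310 and 36.7 FPKM. The 10 trophectoderm markers reached only 4.92 FPKM for control 2 and 54.6 FPKM for *CARM1* KD 3, but 203 to 570 FPKM for the other embryos. The keratin gene *KRT18* was listed at 0 in both control 2 and *CARM1* KD 3, so that these embryos go against the blastocyst label by this marker, and *CDX2* did not exceed 0.445 FPKM in any embryo. The inner cell mass list summed to 43.2 FPKM in control 2 and to between 134 and 218 FPKM elsewhere. Cumulus and sperm lists summed to at most 1.42 and 1.99 FPKM and the blood list to between 7.20 and 11.3 FPKM. Mitochondrially encoded genes took 46.0% of the counts in control 2 and 14.5% to 23.9% in the other embryos, out of 26341924 to 41727594 counts per embryo. Each library is a whole embryo, so fewer cells of a type and less RNA per cell cannot be told apart.

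Members were read in nearly all embryos. Of the 61, 53 had counts in all 6 embryos, 59 reached an FPKM of 1 in 2 or more embryos and were tested, and *DCP1B* and *SKIV2L* were too low for the test. They made up between 0.746% and 0.902% of the non-mitochondrial counts of an embryo. Among members read in all embryos, the highest embryo exceeded the lowest by a median of 6.58-fold, against 8.0-fold over all tested genes. The steadiest were *DCP1A*, a cofactor of the decapping enzyme, with a 1.66-fold range, and *CNOT1*, the scaffold of CCR4-NOT, with a 1.79-fold range, while *BTG4* had the widest.

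*BTG4* (ENSSSCG00000015020, chromosome 9 from 39236413 to 39301867, coordinates of the deposited table) had 131, 875 and 23.9 FPKM in control 1, 2 and 3 and 49.8, 0.491 and 371 FPKM in *CARM1* KD 1, 2 and 3. The values rested on 13650, 63618, 1576, 4899, 46 and 37430 counts, all assigned to a single transcript of 7 exons. Control 2 was the highest and *CARM1* KD 2 the lowest embryo, the groups overlapped, and the order of the 6 embryos was also that of the summed oocyte markers. *BTG4* was the most abundant member in control 2 and *CARM1* KD 3, where it gave 58.8% and 16.4% of the summed FPKM of all members, and it ranked 60 of 61 in *CARM1* KD 2. The log2 fold change of *CARM1* KD over control was -1.75 (standard error 1.88), with an adjusted p of 0.9999 (edgeR, quasi-likelihood, Benjamini-Hochberg) and an unadjusted one of 0.382. An exact permutation test (2-sided) of log2(FPKM + 1) gave p = 0.5, where 3 embryos against 3 cannot give less than 0.1. Without control 2 the fold change turned to 0.54, and without *CARM1* KD 3 it was -4.04.

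**Figure D1:**
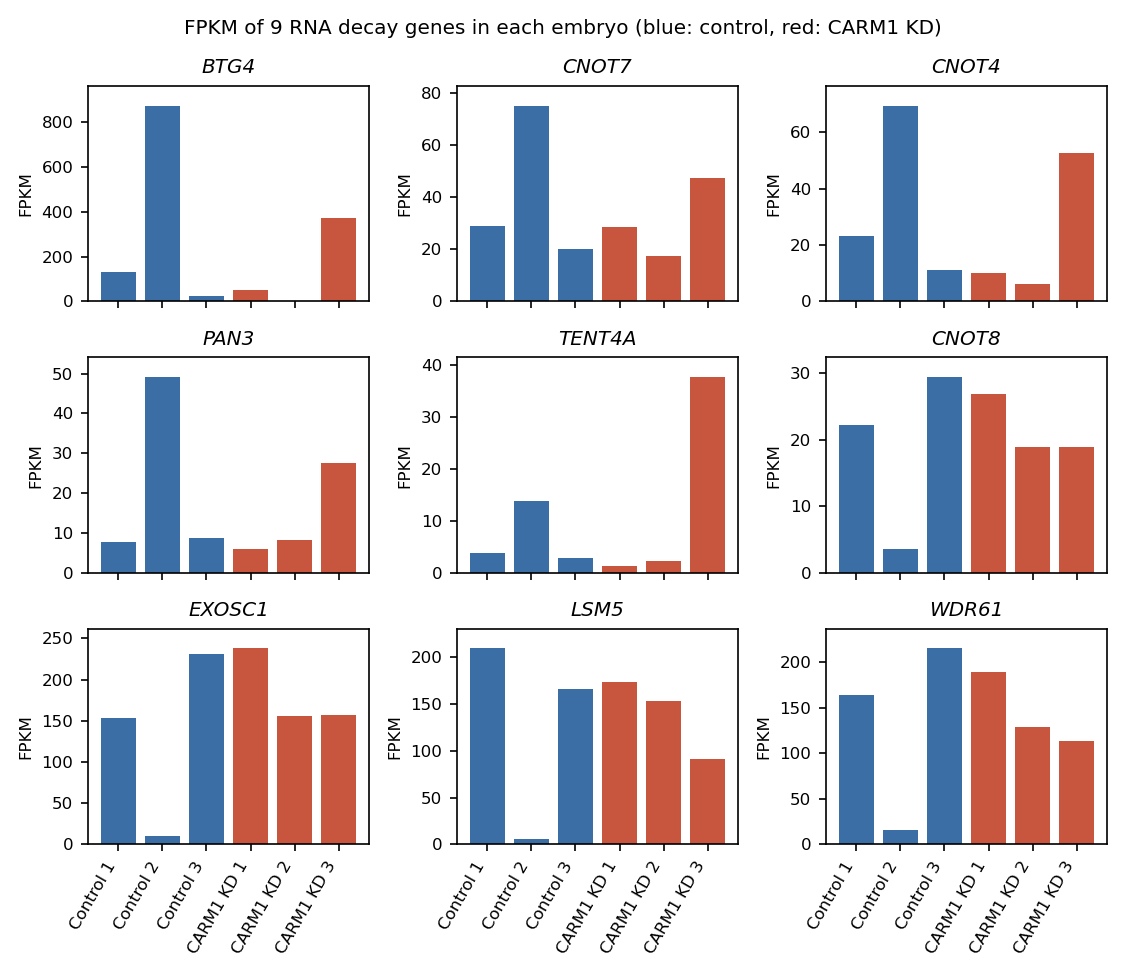
FPKM (y axis, linear from 0) of 9 RNA decay genes in each of the 6 embryos, with control embryos in blue and *CARM1* KD embryos in red. *BTG4*, *CNOT7*, *CNOT4* and *PAN3* were highest in control 2, *TENT4A* was highest in *CARM1* KD 3, and *CNOT8*, *EXOSC1*, *LSM5* and *WDR61* were lowest in control 2.

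The other BTG/TOB adaptors, which link CCR4-NOT to target RNAs or to poly(A) binding protein, did not share the pattern of *BTG4*. *BTG3* had 111, 14.6 and 67.3 FPKM in the uninjected controls, and 128, 110 and 72.2 FPKM in the *CARM1* KD embryos, so that control 2 was the lowest. *BTG2*, an antiproliferative adaptor, had 1.5, 13.1 and 4.19 FPKM in the uninjected controls, and 3.51, 3.75 and 1.22 FPKM in the *CARM1* KD embryos, and was highest in control 2. *BTG1* was highest in *CARM1* KD 2 (77.4 FPKM) and ranged from 12.2 to 29.3 FPKM elsewhere. *TOB1* exceeded its paralog *TOB2* in 5 of 6 embryos on the FPKM scale, with 21.3 to 27.2 against 8.85 to 11.5 FPKM among the controls, but not in *CARM1* KD 3, where *TOB2* had 30.6 and *TOB1* 26.1 FPKM.

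Within CCR4-NOT the subunits went in different directions between embryos. Of the 10 subunits, 5 had their highest values in control 2 and *CARM1* KD 3: the catalytic subunits *CNOT6*, *CNOT6L* and *CNOT7*, the NOT module subunit *CNOT3* and the ubiquitin ligase *CNOT4*. This order held for 24.1% of all tested genes. *CNOT8*, *CNOT9*, *CNOT10* and *CNOT2*, by contrast, were lowest in control 2. These 40% of the subunits were near the share of all tested genes with that order, 42.1%.

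*CNOT4* had 23.1, 69.6 and 11.2 FPKM in the uninjected controls, and 10.1, 6.34 and 52.6 FPKM in the *CARM1* KD embryos. *CNOT10* had 8.41, 2.68 and 9.10 FPKM in the uninjected controls, and 10.6, 11.8 and 11.2 FPKM in the *CARM1* KD embryos. *CNOT9*, through which the complex contacts RNA-binding proteins, had 2.74 FPKM in control 2 and between 9.51 and 18.2 FPKM elsewhere. Thus control 2 held both the highest *CNOT4* and the lowest *CNOT10* and *CNOT9* values.

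The closest contrast was between *CNOT7* and *CNOT8*, paralogs that encode the alternative CAF1-type catalytic subunit. *CNOT7* (ENSSSCG00000006983, chromosome 17 from 4926156 to 4949583) had 28.9, 75.3 and 20.1 FPKM in control 1, 2 and 3 and 28.7, 17.5 and 47.5 FPKM in *CARM1* KD 1, 2 and 3. *CNOT8* (ENSSSCG00000017067, chromosome 16 from 68329793 to 68350260) had 22.2, 3.54 and 29.5 FPKM and 26.9, 19.0 and 18.9 FPKM. The ratio of *CNOT7* to *CNOT8* on the FPKM scale was 21.3 in control 2 and 2.51 in *CARM1* KD 3, and between 0.682 and 1.30 in the other 4 embryos. The CCR4-type paralogs did not part in this way: *CNOT6L* exceeded *CNOT6* in all 6 embryos, by 1.17-fold to 3.35-fold.

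Of the deadenylases outside CCR4-NOT, 3 of 4 were also highest in control 2 and *CARM1* KD 3 (against 24.1% of all tested genes). The 3 include *PNLDC1*, which was placed in this role after its values were seen. *PAN3*, which binds poly(A) binding protein and brings in the nuclease PAN2, had 7.71, 49.1 and 8.81 FPKM in the uninjected controls, and 5.98, 8.30 and 27.4 FPKM in the *CARM1* KD embryos. *PARN*, a poly(A)-specific nuclease that also matures small nucleolar RNAs, had 11.3, 15.7 and 3.88 FPKM and 6.61, 1.92 and 18.8 FPKM. *PNLDC1*, a PARN relative that trims piRNAs in mice, had 7.94, 12.1 and 5.52 FPKM and 1.89, 2.30 and 8.28 FPKM. In each case the lowest embryo was *CARM1* KD 1 or *CARM1* KD 2, while *CARM1* KD 3 had a high value. *PAN2* itself was low throughout (0.813 to 3.30 FPKM) and was lowest in *CARM1* KD 3.

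**Figure D2:**
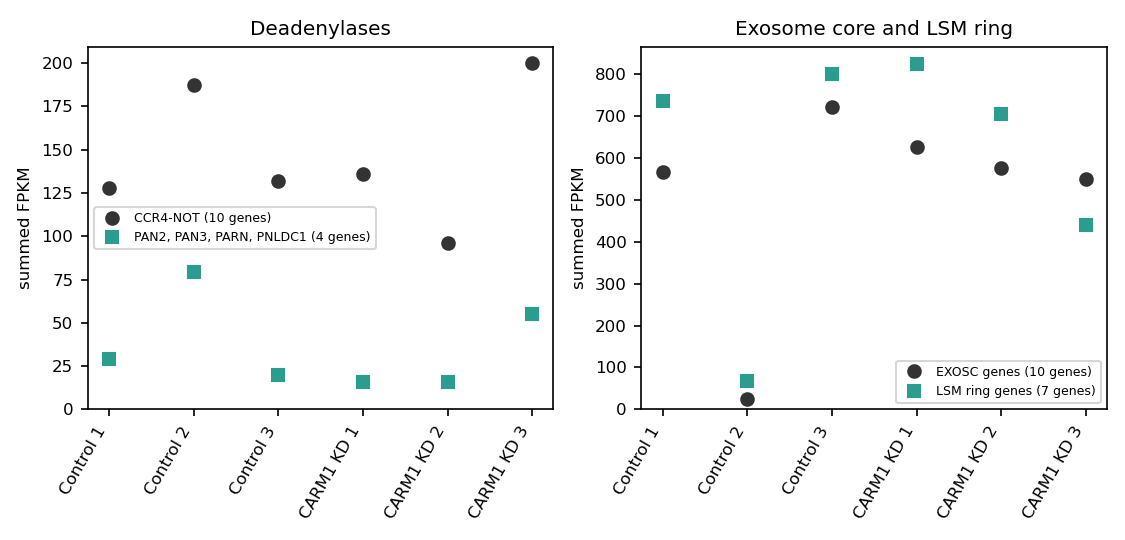
Summed FPKM (y axis, linear from 0) of 10 CCR4-NOT genes and 4 other deadenylase genes (left) and of 10 exosome core genes and 7 LSM genes (right) in each embryo. The deadenylase sums were highest in control 2 and *CARM1* KD 3, whereas the exosome and LSM sums were 23.9 and 67.2 FPKM in control 2 and at least 441 FPKM in every other embryo.

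Most exosome genes were lowest in control 2, as 17 of 20 were (85%, against 42.1% of all tested genes). The 10 *EXOSC* genes, which encode the barrel and cap of the exosome and the nuclear nuclease EXOSC10, summed to 565, 23.9 and 721 FPKM in control 1, 2 and 3 and to 626, 576 and 551 FPKM in *CARM1* KD 1, 2 and 3. All 10 were lowest in control 2, where none exceeded 9.74 FPKM, while the lowest value in any other embryo was 6.10 FPKM. *EXOSC1*, a cap subunit and the most abundant of them, had 154, 9.74 and 231 FPKM in the uninjected controls, and 238, 155 and 157 FPKM in the *CARM1* KD embryos.

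*EXOSC2* and *EXOSC4*, cap and barrel subunits, had counts of 0 in control 2, which allow up to 0.0693 and 0.0749 FPKM (a floor of 3 counts, covering counting error only). In the other embryos *EXOSC2* ranged from 27.7 to 42.9 FPKM and *EXOSC4* from 43.1 to 119 FPKM. *EXOSC5* had 0.203 FPKM in control 2 and 33.7 to 70.8 FPKM elsewhere, and *EXOSC3* had 2.48 FPKM and 31.3 to 125 FPKM. These 4 genes were among the 8 members that varied most between embryos. The catalytic subunit *DIS3* varied little beside them (12.2 to 25.3 FPKM), and its cytoplasmic paralog *DIS3L* had a count of 0 in control 2 and 1.54 to 5.28 FPKM elsewhere.

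*CARM1* KD 3 did not stand with control 2 for the exosome core as a whole, since its *EXOSC* sum was close to those of control 1 and *CARM1* KD 2. For *EXOSC7*, *EXOSC8* and *EXOSC10* it was the second lowest embryo. The barrel subunit *EXOSC6* had 0.822 FPKM in control 2 and 9.72 to 28.3 FPKM elsewhere, and *EXOSC9* had 2.84 FPKM and 36.8 to 58.2 FPKM.

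Exosome cofactors also differed among themselves. *WDR61*, a subunit shared by the Ski and PAF1 complexes, was the most abundant cofactor, with 164, 15.6 and 215 FPKM in the uninjected controls, and 189, 129 and 114 FPKM in the *CARM1* KD embryos. The other Ski genes, *SKIV2L* and *TTC37*, did not exceed 0.880 and 3.04 FPKM. *C1D*, an RNA-binding partner of EXOSC10, had 24.3 FPKM in control 2 and 62.1 to 183 FPKM elsewhere. The noncanonical poly(A) polymerase gene *TENT4A* ran the other way, with 3.85, 13.8 and 2.87 FPKM in the uninjected controls, and 1.40, 2.37 and 37.7 FPKM in the *CARM1* KD embryos. *TENT4A* thus exceeded *TENT4B* by 17.9-fold in control 2 and 10.6-fold in *CARM1* KD 3, and by 0.945-fold to 2.55-fold in the other embryos. The identity of *TENT4B* is uncertain, since the name table gives its identifier to the gene *HEATR3*. *ZCCHC7*, a partner of these polymerases, was likewise highest in control 2 and *CARM1* KD 3 (12.7 and 14.8 FPKM, against 3.32 to 7.75 FPKM), whereas the helicase gene *MTREX* ranged from 7.56 to 29.9 FPKM with control 2 in the middle.

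In the decapping group the LSM genes behaved like the exosome. The 7 annotated *LSM* genes, whose products form the cytoplasmic ring that binds deadenylated RNA and the nuclear ring on U6 RNA, summed to 737, 67.2 and 801 FPKM in the uninjected controls, and 825, 705 and 441 FPKM in the *CARM1* KD embryos. All 7 were lowest in control 2, as were 42.1% of all tested genes. For 5 of them *CARM1* KD 3 was the next lowest, and these 2 embryos were the 2 lowest for 19.8% of all tested genes.

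*LSM5* had 210, 6.09 and 166 FPKM in the uninjected controls, and 174, 153 and 91.4 FPKM in the *CARM1* KD embryos. *LSM8*, the subunit specific to the nuclear ring, had 130, 19.9 and 233 FPKM and 140, 104 and 101 FPKM. *LSM1*, the subunit specific to the cytoplasmic ring, had 13.2, 4.47 and 12.3 FPKM and 28.5, 13.0 and 16.7 FPKM, so that it was the less abundant of the ring-specific subunits in every embryo. *LSM2* and *LSM4* had counts of 0 in control 2, which allow up to 0.110 and 0.0967 FPKM, against at least 60.4 and 65.9 FPKM in the other embryos.

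The decapping enzymes and activators differed from the LSM genes. *DCP2*, the decapping enzyme, was highest in control 2 and *CARM1* KD 3 (11.6 and 11.9 FPKM, against 2.93 to 8.27 FPKM), as was its activator *EDC3*. *EDC4*, the scaffold of the decapping complex, instead had a count of 0 in control 2, with 1.91 and 1.67 FPKM in control 1 and 3 and 3.06, 4.99 and 4.24 FPKM in the *CARM1* KD embryos. *PATL1*, which joins the LSM ring to the decapping enzyme, had 3.75, 1.98 and 3.90 FPKM in the uninjected controls, and 3.25, 3.20 and 10.7 FPKM in the *CARM1* KD embryos. *XRN2*, the nuclear 5′ nuclease, had 27.6, 2.64 and 35.8 FPKM and 36.6, 32.1 and 24.8 FPKM. The helicase gene *DDX6* (2.90 to 9.13 FPKM) was lowest in *CARM1* KD 3. Of the remaining genes of this group, *LSM3* and *LSM6* had 36.4 and 0.354 FPKM in control 2 and at least 94.6 and 8.24 FPKM elsewhere. The cap scavenger *DCPS* and the G-quadruplex helicase *DHX36* were also lowest in control 2, with ranges of 3.54 to 22.3 and 2.81 to 7.81 FPKM, and *NUDT16* and the decapping cofactor *DCP1B* stayed at or below 2.50 and 1.26 FPKM.

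**Figure D3:**
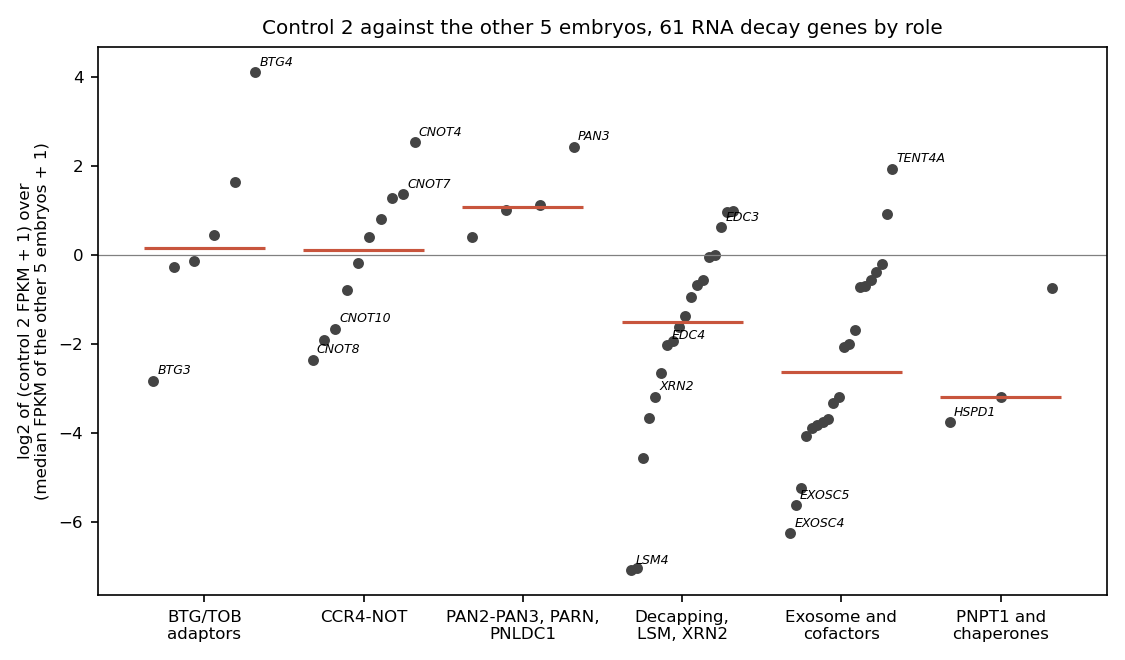
Each point is 1 of the 61 genes, placed by role (x axis) and by the log2 of its FPKM + 1 in control 2 over the median FPKM + 1 of the other 5 embryos (y axis), with a red line at the median of each role. *BTG4*, *CNOT4*, *CNOT7*, *PAN3* and *TENT4A* lie above 0, and most exosome and LSM genes lie well below it.

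The pathway also lists *PNPT1*, the mitochondrial polynucleotide phosphorylase, and the mitochondrial chaperone genes *HSPA9* and *HSPD1*, which encode no nuclease. *HSPD1* had 192, 5.41 and 85.1 FPKM in the uninjected controls, and 72.7, 119 and 29.9 FPKM in the *CARM1* KD embryos. *HSPA9* had 9.82 FPKM in control 2 and 56.5 to 134 FPKM elsewhere, and *PNPT1* had 2.59 FPKM and 4.01 to 10.2 FPKM. All 3 were lowest in control 2 (as were 42.1% of all tested genes), although the mitochondrially encoded share of counts was highest there.

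Over all members, 37 of 61 were lowest in control 2 (60.7%, against 42.1% of all tested genes) and 7 were highest (11.5%, against 18.8%). Control 2 and *CARM1* KD 3 held the highest values for 13 members (21.3%, against 24.1% of all tested genes) and the lowest for 16 (26.2%, against 19.8%), both near the background. Genes of 1 role could go apart, as *BTG4* and *BTG3*, *CNOT7* and *CNOT8* or *DCP2* and *EDC4* did, and no difference between roles was tested. With FPKM divided by the non-mitochondrial share of counts, a scale chosen after the data were seen, control 2 was lowest for 33 and highest for 15 members, and 10 of 10 *EXOSC* and 7 of 7 *LSM* genes were still lowest there. Control 2 had counts of 0 for 7 members and also the fewest non-mitochondrial counts, 15989799 against 21514185 to 34726470 in the other embryos. Of all tested genes, 18.3% had a count of 0 in control 2, against 1.78% to 5.90% in the other embryos. The part of depth in these counts of 0 was not tested. Each of these orders describes single embryos and has no replicate check. The oocyte marker sum and the trophectoderm sum set both control 2 and *CARM1* KD 3 apart from the other embryos. The mitochondrial share set only control 2 apart (46.0%, against 20.6% in *CARM1* KD 3 and 23.9% in *CARM1* KD 2). The part of these 3 measures was not tested.

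Against this spread between embryos, no member passed the test between *CARM1* KD and control embryos. From edgeR's quasi-likelihood test 0 of 59 members passed an adjusted p under 0.05 (0% of 10639 tested genes did), 0 had an unadjusted p under 0.05 (0.686% of tested genes, 0.338% higher and 0.348% lower in *CARM1* KD), and DESeq2 called 0 members at either threshold (0.113% and 1.81% of tested genes). The smallest unadjusted p among members was 0.188, for *PNLDC1*, and all adjusted p were 0.9999 from edgeR. The log2 fold change was above 0 for 37 members and below 0 for 22, that is 62.7% above 0 against 55.3% of all tested genes, and its median was 0.13 against 0.10. The standard errors were 0.56 to 1.88 on the log2 scale, and the biological coefficient of variation was 1.12, errors that leave room for sizeable differences in either direction.

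By role, 4 of 6 BTG/TOB adaptors, 5 of 10 CCR4-NOT subunits, 12 of 17 tested decapping genes, 14 of 19 tested exosome genes and 2 of 3 mitochondrial genes had a log2 fold change above 0. The share over all tested genes was 55.3%. All 4 deadenylases outside CCR4-NOT had one below 0, with a median of -0.72. They include *PNLDC1*, which was placed in this role after its values were seen. The medians of the *EXOSC* and *LSM* genes were 0.33 and 0.34, and all of these genes were lowest in control 2, a control embryo. Without control 2 the median over all tested members was -0.06. The 10 smallest unadjusted p belonged to *PNLDC1* (log2 fold change -1.31, standard error 0.90), *BTG2* (-1.21, 1.04), *LSM1* (0.87, 0.80), *EDC4* (1.72, 1.64), *PAN3* (-0.97, 0.97), *CNOT4* (-0.95, 1.0), *BTG4*, *CNOT10* (0.65, 0.70), *PATL1* (0.59, 0.69) and *CNOT7* (-0.63, 0.75).

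Several of these fold changes rested on 1 embryo. Without control 2 the log2 fold changes of *PAN3*, *CNOT4* and *CNOT7* turned to 0.49, 0.15 and 0.19, that of *BTG2* was -0.05, those of *CNOT10*, *LSM1* and *PATL1* were 0.26, 0.53 and 0.35, and that of *EDC4* was 1.11, while *PNLDC1* stayed at -0.93. Without *CARM1* KD 1 that of *LSM1* was 0.45. Without *CARM1* KD 3 that of *PATL1* was 0.0048, and those of *PNLDC1*, *PAN3*, *CNOT4* and *CNOT7* were -2.09, -1.78, -2.23 and -0.99. Without control 3 that of *CNOT10* was 1.0. With the embryo of the highest oocyte marker sum left out of each group, which sets controls 1 and 3 against *CARM1* KD 1 and 2, 0 of the tested members had an unadjusted p under 0.05 and their median log2 fold change was 0.00053. In that comparison *CNOT4* stayed at -0.95 and *PNLDC1* at -1.57. With all embryos and a term for oocyte markers, *CNOT4* was instead at -0.15, *PAN3* at -0.12, *CNOT7* at -0.04 and *PNLDC1* at -0.98.

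**Figure D4:**
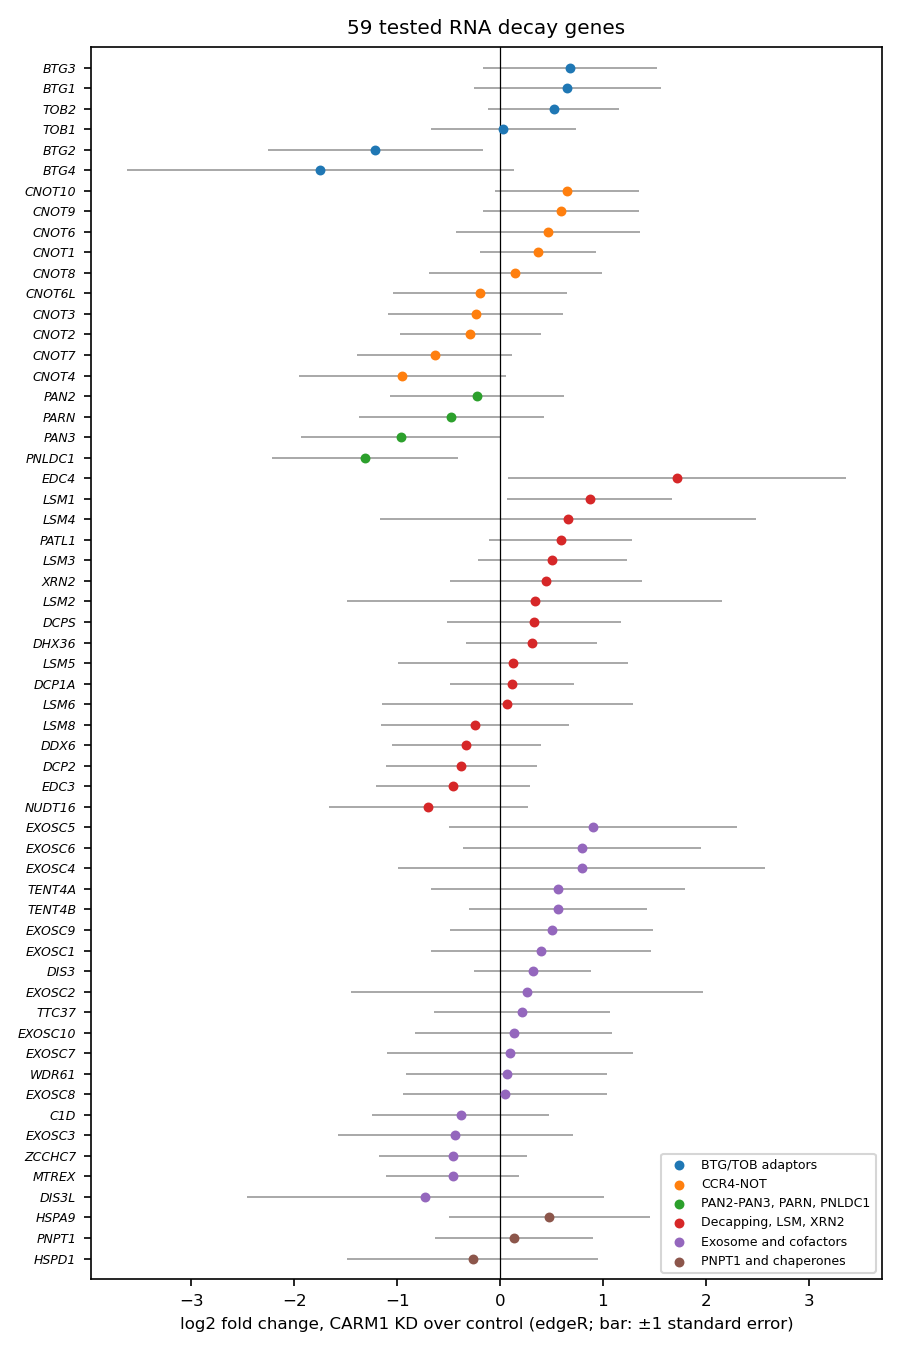
The log2 fold change of *CARM1* KD over control (x axis, edgeR) for the 59 tested genes, coloured by role, with bars of 1 standard error. Most bars cross 0, and the widest belong to genes with a very high or a 0 value in control 2, such as *BTG4*, *LSM2* and *LSM4*.

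The groups did not overlap for 4 of the 59 tested members (6.78%), *CNOT1*, *CNOT10*, *DIS3* and *EDC4*, all higher in the *CARM1* KD embryos, against 3.82% of all tested genes in that direction and 1.07% in the other, in which no member lay. *CNOT1* had 9.51 ± 0.260 FPKM in the uninjected controls, and 13.6 ± 2.85 FPKM in the *CARM1* KD embryos (SD, n = 3 each), and *DIS3* had 12.2 to 15.5 FPKM and 16.4 to 25.3 FPKM. Neither *CNOT1* (log2 fold change 0.37, standard error 0.56) nor *DIS3* (0.32, 0.57) passed the unadjusted threshold.

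Transcript shares were compared for the 62 transcripts of 32 members that took at least 10% of their gene's counts on average, in genes with 2 or more transcripts. The groups did not overlap for 1 transcript that was higher in *CARM1* KD embryos, of *CNOT1* (1.61%, against 3.08% of 8876 transcripts of all tested genes), and for 4 that were lower, of *CNOT4*, *DDX6*, *EXOSC7* and *PAN2* (6.45%, against 3.36%). This comparison was chosen after values had been seen, and none of it was tested. The transcript ENSSSCT00000043394, of 12 exons and 3528 nucleotides, took 94.2%, 75.4% and 89.1% of *CNOT4* counts in control 1, 2 and 3 and 3.57%, 50.6% and 19.5% in *CARM1* KD 1, 2 and 3. The leading transcript of the *CARM1* KD embryos was not shared, being ENSSSCT00000053462 in *CARM1* KD 1 (83.1%) and ENSSSCT00000017996 in *CARM1* KD 3 (69.6%). Such shares are estimates from reads that overlapping transcripts have in common. For *DDX6*, the transcript ENSSSCT00000016463 took 61.1%, 81.2% and 21.2% in control 1, 2 and 3 and was listed at 0 in all 3 *CARM1* KD embryos. For *CNOT7*, the transcript ENSSSCT00000007648 took 95.1% of counts in control 2 and 43.7% to 74.5% in the other embryos.

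Decay factors that the pathway does not list gave a similar picture. Of 37 such genes in the table, among them factors of nonsense-mediated decay, microRNA silencing and translational control in oocytes, 33 were tested, 20 had a log2 fold change above 0 and 13 below 0, and 0 had an unadjusted p under 0.05 from edgeR. *CPEB1*, which controls poly(A) tail length in oocytes, had 14.1, 72.2 and 1.19 FPKM in the uninjected controls, and 3.66, 0.215 and 36.9 FPKM in the *CARM1* KD embryos, the order of *BTG4*. *YTHDF2*, the m6A reader that recruits CCR4-NOT, was higher in each *CARM1* KD embryo (20.8 to 23.4 FPKM) than in any control embryo (12.7 to 16.8 FPKM). *UPF2* and *UPF3B*, factors of nonsense-mediated decay and the most abundant of the list, ranged from 15.5 to 70.7 and from 9.25 to 47.8 FPKM with overlapping groups. *ZFP36L2*, which recruits CCR4-NOT to AU-rich RNAs, had a log2 fold change of -1.51 (standard error 1.09) and *CELF1* one of 1.01 (standard error 0.74), and neither passed the unadjusted threshold. Of 8 further genes of the same machinery without the pathway annotation, 0 passed it, and *LSM7*, with 69.9 FPKM in control 2 and 546 to 871 FPKM elsewhere, followed the annotated *LSM* genes.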

How the data were processed

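Libraries of single embryos were sequenced for RNA from 3 control and 3 *CARM1* KD embryos, grouped by their labels. The authors extracted RNA with the RNeasy kit, pre-amplified cDNA, made TruSeq Nano libraries and mapped HiSeq reads to the pig genome. The submitters' processing notes name, without versions, HISAT2, StringTie, fastp and edgeR, and the build GRCh38.p10. The deposited tables hold FPKM and estimated counts per gene and transcript, and the tool behind them is not given in the sources used. All 58 members found under the same symbol and chromosome in RefSeq overlapped their Sscrofa11.1 gene, so the deposited coordinates are given as that build. A count of 0 has a deposited FPKM of 0.0001, given as 0 here. Of the 61 members, 6 were named only by identifier: 4 took a symbol from an Ensembl name table and 2 (*TTC37*, *C1D*) from the table's description.

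The deposited counts, already whole numbers, entered edgeR's quasi-likelihood fit, with TMM scaling and Benjamini-Hochberg adjustment over 10639 genes that reached an FPKM of 1 in 2 or more libraries. The fit had 4 residual degrees of freedom. It was also run on simulated data, but the outcome is not given here, so how often it finds a true difference at this spread is not stated. The standard error is the absolute log2 fold change over the root of F. Each library is 1 embryo; depths of 26341924 to 41727594 counts leave the spread between embryos, not counting error, as the main limit for abundant genes. Orders of embryos and transcript shares are descriptions. Where paralogs share sequence, the authors' counting may split reads between them.

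The members, roles and lists were chosen with earlier results of these data known, and *PNLDC1* was given its role after its values were seen. Values per embryo were to be printed for *BTG4*, the 2 members of highest mean FPKM in each role, the 10 of smallest p, the 8 of largest SD of log2(FPKM + 1) and 5 paralog pairs, and outside the pathway for up to 4 of highest FPKM and 3 of smallest p. One gene that this rule selects is not reported here. Others named were chosen after their values were seen. Alternatives were DESeq2, median-ratio scaling, no filter, a filter of FPKM 5 in 3 libraries, limma with pseudocounts of 1 and 0.1, mitochondrial genes left out, a replicate block, each library left out, the oocyte-rich embryo of each group left out, and a term for oocyte markers. DESeq2 1.42.0, edgeR 4.0.16 and limma 3.58.1 ran in R 4.3.3, and figures were drawn with matplotlib 3.10.9 in Python 3.11.15, with scipy 1.17.1 for the permutation test.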

Additional observations from a re-analysis of the deposited data

How the results depend on the processing

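In none of the alternatives did a member pass an adjusted p under 0.05 or an unadjusted p under 0.05. The median log2 fold change of the members lay between -0.06 and 0.50, with -0.06 to 0.44 when 1 library was left out (-0.06 without control 2) and -0.02 with a term for oocyte markers. Over all genes, DESeq2 called 12 genes at an adjusted p under 0.05 where edgeR called 0, and none was a member. The count of genes at an unadjusted p under 0.05, 73 in edgeR, was 193 with DESeq2, 243 without a filter, 15 with the stricter filter, 193 with the oocyte-rich embryo of each group left out and 49 to 122 with 1 library left out (122 without *CARM1* KD 3). *BTG4* lay between -4.04 and 0.54 with 1 library left out, and between -2.66 and -0.51 in the other alternatives. Fold changes turned without control 2 for *PAN3* (0.49), *CNOT4* (0.15), *CNOT7* (0.19) and *BTG4* (0.54), and with the oocyte-rich embryo of each group left out for *BTG2* (0.39), *PATL1* (-0.16) and *CNOT7* (0.00053). Control 2 was highest for 15 members in place of 7 when FPKM was divided by the non-mitochondrial share. Without *CARM1* KD 3 the fold changes of *PAN3*, *CNOT4* and *CNOT7* were -1.78, -2.23 and -0.99, the lowest with 1 library left out. The cause was not tested.

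Replicate numbers of the groups did not pair the embryos: the deviations of same-numbered embryos correlated at 0.18, -0.47 and -0.50. With the replicate number as a block, 16 genes had an unadjusted p under 0.05, none of them a member. Only 59 members could be tested, 47 under the stricter filter, and 3 embryos per group with this spread limit what can be seen.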
